A study of Homo sapiens with 14 samples.

Results

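The 9 genes described here are the TGF-beta ligands TGFB1, TGFB2 and TGFB3, the receptors TGFBR1, TGFBR2 and TGFBR3, and SMAD7, SKIL and TGFBI, which TGF-beta signaling is known to induce. They were chosen by role and found by gene symbol, all 9 of them among the 26732 names that the count tables of the 2 lines share. RNA-seq was made from A549 and H1792, both established human lung adenocarcinoma lines. A549 was grown in DMEM and H1792 in RPMI medium, each with fetal bovine serum and antibiotics. Dishes of either line received DMSO, the solvent control, or 0.1 µM AMG900, an inhibitor of the aurora kinases that drive mitosis, and RNA was taken 48 h later. A549 gave 4 DMSO and 4 AMG900 libraries, and H1792 gave 3 and 3. The question was how the inhibitor changed the transcripts of these genes within each line, and whether the lines responded differently.

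TGF-beta is secreted in a latent form bound to its own propeptide and must be released before it can act. The free ligand binds TGFBR2, which then phosphorylates TGFBR1, and TGFBR1 phosphorylates SMAD2 and SMAD3, which join SMAD4 and enter the nucleus. In lung epithelium and its tumors the pathway restrains growth early, and is known at later stages for epithelial-mesenchymal transition, matrix production and invasion.

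The A549 libraries held 4254644 to 18962883 counts and the H1792 libraries 42760874 to 79902934, so that low genes were measured with less error in H1792. A549 DMSO replicate 1 was the smallest library and stood apart, at 50.6 on the second principal component of A549 against -20.7 to -18.7 for the other 3 DMSO libraries. Neither line carried the markers of differentiated lung epithelium, since the summed level of NKX2-1, SFTPA1, SFTPB, SFTPC and SCGB1A1 was at most 0.863 CPM (TMM-scaled CPM, the share of a library's counts) in any library. The 6 epithelial markers EPCAM, CDH1, KRT7, KRT8, KRT18 and KRT19 summed to 7536 to 9795 CPM in A549 with DMSO and to 1574 to 1975 CPM in H1792. Most of this sum was KRT7, KRT8 and KRT18. EPCAM went the other way, with means of 0.287 CPM in A549 and 3.48 CPM in H1792 with DMSO. The 8 mesenchymal markers summed to 1514 to 1801 CPM in A549 and to 6712 to 7295 CPM in H1792. With AMG900 the epithelial sum was 10710 to 12622 CPM in A549 and 1982 to 2026 CPM in H1792, above the DMSO range in both lines. The mesenchymal sum was 1471 to 1528 CPM in A549, which overlapped the DMSO range, and 5983 to 6134 CPM in H1792, below it. The mesenchymal markers in H1792 did not move as one, since VIM had means of 2499 CPM with DMSO and 3112 CPM with AMG900, with separate ranges, while CDH2 had 479 and 279 CPM and COL1A1 2368 and 1588 CPM. The 4 endothelial markers summed to at most 17.1 CPM. The 5 blood markers summed to 60.1 to 86.8 CPM in A549 and 101 to 117 CPM in H1792 with DMSO and to 163 to 179 and 173 to 199 CPM with AMG900. Most of this was CD68, which encodes a lysosomal protein, with means of 70.3 and 107 CPM with DMSO, and PTPRC, the pan-leukocyte marker, had at most 4 counts in any library. The part of these marker changes in the results on the 9 genes was not tested.

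The stretch of DNA just before a gene's start is where receptor-activated SMADs can bind, and CAGAC, or GTCTG on the other strand, is the short motif that SMAD3 and SMAD4 recognize. Of 20 promoter entries that RefSeq lists for the 9 genes (GRCh38), 6 end directly before the annotated gene start in GRCh37 and 4 of these overlap no annotated exon. The 250 bases before the start are shown for those 4, each matched exactly to GRCh37 and written 5′ to 3′ on the gene's strand, with the motif in capitals, to set the stretch before the inhibitory SMAD7 beside those of a ligand, a receptor and a matrix gene.
TGFB3 (chr14:76449355-76449604, minus strand): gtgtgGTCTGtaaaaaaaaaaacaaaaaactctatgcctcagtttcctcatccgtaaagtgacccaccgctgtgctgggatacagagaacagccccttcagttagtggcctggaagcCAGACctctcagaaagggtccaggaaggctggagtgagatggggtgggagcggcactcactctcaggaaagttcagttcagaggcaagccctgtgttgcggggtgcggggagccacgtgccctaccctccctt
TGFBR2 (chr3:30647843-30648092, plus strand): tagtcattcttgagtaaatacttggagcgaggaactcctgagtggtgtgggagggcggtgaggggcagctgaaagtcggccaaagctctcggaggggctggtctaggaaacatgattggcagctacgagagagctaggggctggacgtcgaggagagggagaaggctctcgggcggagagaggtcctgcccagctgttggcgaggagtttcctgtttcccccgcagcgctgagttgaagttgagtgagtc
SMAD7 (chr18:46477336-46477585, minus strand): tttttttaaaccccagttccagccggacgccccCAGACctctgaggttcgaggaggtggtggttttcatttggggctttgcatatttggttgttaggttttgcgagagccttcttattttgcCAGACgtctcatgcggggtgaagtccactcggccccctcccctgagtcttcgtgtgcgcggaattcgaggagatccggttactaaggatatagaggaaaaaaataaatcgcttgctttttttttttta
TGFBI (chr5:135364427-135364676, plus strand): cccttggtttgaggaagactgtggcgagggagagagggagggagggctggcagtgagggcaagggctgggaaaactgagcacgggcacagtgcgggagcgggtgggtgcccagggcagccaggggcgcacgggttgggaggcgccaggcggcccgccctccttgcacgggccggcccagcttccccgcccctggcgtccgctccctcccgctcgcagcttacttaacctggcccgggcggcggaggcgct
The motif stood at bases 6 and 118 of the TGFB3 stretch and at bases 34 and 123 of the SMAD7 stretch, and nowhere in the TGFBR2 or TGFBI stretch. Of all listed entries, 1 of 2 for TGFB3 and 2 of 3 for SMAD7 held the motif, so another listed promoter of each gene lacked it. It was found in 9 of the 20 entries of the 9 genes and in 38% of 35116 promoters of the same length, so a match is common. The palindrome GTCTAGAC was found in none of the 20 entries and in 0.182% of all promoters.

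Among the ligands, AMG900 raised TGFB1 in A549 and lowered TGFB2 in H1792. TGFB1 encodes the most widely expressed ligand and lies at chr19:41807492-41859827 (GRCh37, minus strand). In A549 its 4 DMSO libraries gave 372, 322, 349 and 344 CPM and its 4 AMG900 libraries gave 415, 410, 461 and 476 CPM. Every treated library was above every control. The log2 fold change was 0.35 ± 0.07 (SE), a 1.27-fold rise with an adjusted p of 0.00119 in edgeR's quasi-likelihood test with Benjamini-Hochberg adjustment over all 13174 genes tested, and calls were made at an adjusted p below 0.01. In H1792 the DMSO libraries gave 968, 909 and 959 CPM and the AMG900 libraries 957, 960 and 936 CPM. These ranges overlapped, the log2 fold change was 0.0084 ± 0.047, and its 95% interval was -0.08 to 0.10 (adjusted p = 0.896, edgeR).

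TGFB2, at chr1:218518678-218617961 (plus strand), encodes a ligand that binds TGFBR2 poorly unless TGFBR3 presents it. The H1792 libraries held 26.2, 32.3 and 33.4 CPM with DMSO and 17.6, 18.6 and 16.8 CPM with AMG900. The groups did not overlap and the gene fell by 0.79 ± 0.10 on the log2 scale, a 1.73-fold drop (adjusted p = 0.0001, edgeR). The A549 libraries held 45.4, 57.8, 56.9 and 57.8 CPM with DMSO against 44.6, 49.6, 50.4 and 44.1 CPM with AMG900. The one low control, replicate 1, lay inside the treated range, and the log2 fold change of -0.22 ± 0.10 was not called (adjusted p = 0.0793, edgeR). Without that library it was -0.28 with an adjusted p of 0.00451 and was called.

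TGFB3, at chr14:76424440-76449354 (minus strand), encodes the third ligand and was close to silent in A549, where the DMSO libraries held 1, 7, 31 and 11 counts and the AMG900 libraries 2, 6, 12 and 14 counts. It did not pass the filter on low counts there and was not tested in that line. H1792 held 7.57, 7.18 and 7.73 CPM with DMSO and 9.39, 8.78 and 8.59 CPM with AMG900. All treated libraries were above the controls, yet the log2 fold change of 0.25 ± 0.09 missed the threshold (adjusted p = 0.0422, edgeR).

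All 3 receptor genes fell in H1792, whereas TGFBR2 alone of the 3 was called in A549. TGFBR1 (chr9:101866320-101916474, plus strand) encodes the type I receptor kinase that phosphorylates the SMADs. H1792 showed 24.6, 24.3 and 23.8 CPM with DMSO and 11.7, 11.0 and 11.8 CPM with AMG900, 2 tight groups far apart. The fall of 1.08 ± 0.07 on the log2 scale was 2.11-fold (adjusted p = 3.49e-06, edgeR). In A549 the values were 31.5, 33.1, 30.7 and 35.1 CPM with DMSO and 36.3, 39.7, 33.1 and 36.6 CPM with AMG900. These groups overlapped and the log2 fold change of 0.16 ± 0.10 was not called, with a 95% interval of -0.04 to 0.35 (adjusted p = 0.203, edgeR).

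TGFBR2 (chr3:30648093-30735634, plus strand) encodes the type II receptor kinase that binds the ligand first, and it was the one member called in the same direction in both lines. In A549 it had 72.4, 77.8, 79.6 and 74.1 CPM with DMSO and 55.6, 58.1, 62.3 and 51.1 CPM with AMG900. In H1792 it had 22.7, 26.6 and 25.1 CPM with DMSO and 12.4, 13.3 and 12.7 CPM with AMG900. The groups were separate in both lines. It fell by 0.42 ± 0.08 in A549 (1.34-fold, adjusted p = 0.000831) and by 0.95 ± 0.08 in H1792 (1.93-fold, adjusted p = 1.37e-05) on the log2 scale in edgeR.

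TGFBR3 (chr1:92145900-92371892, minus strand) encodes betaglycan, a co-receptor that presents ligand to TGFBR2, and it was rare in both lines. The H1792 values were 2.42, 2.83 and 3.58 CPM with DMSO and 1.36, 1.28 and 1.19 CPM with AMG900, from 64 to 158 counts a library. The groups were apart and the log2 fold change was -1.19 ± 0.19, a 2.29-fold drop (adjusted p = 0.000586, edgeR). The A549 values were 1.88, 3.28, 2.62 and 2.61 CPM with DMSO and 0.661, 1.54, 1.29 and 1.87 CPM with AMG900, from 7 to 44 counts a library. The highest treated value lay just under the lowest control, and the log2 fold change of -0.95 ± 0.33 was not called (adjusted p = 0.0273, edgeR).

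Of the 3 induced genes, SKIL fell in H1792, TGFBI rose in A549 and SMAD7 was called in neither line. SMAD7 (chr18:46446223-46477335, minus strand) encodes the inhibitory SMAD that TGF-beta induces to turn its own receptor off. It had 33.8, 43.6, 47.5 and 38.8 CPM in A549 with DMSO and 32.4, 34.5, 39.0 and 35.9 CPM with AMG900. Its H1792 libraries held 30.3, 28.0 and 30.4 CPM against 27.6, 25.9 and 25.3 CPM. The A549 groups overlapped and the H1792 groups were separated by less than 1 CPM. The log2 fold changes were -0.22 ± 0.11 (adjusted p = 0.123) and -0.17 ± 0.07 (adjusted p = 0.0638) in edgeR.

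SKIL (chr3:170075130-170114623, plus strand) encodes SnoN, a co-repressor that holds SMAD complexes inactive and is re-expressed after signaling. Its level in H1792 was 7.002, 9.05 and 7.45 CPM with DMSO and 5.07, 4.17 and 4.70 CPM with AMG900. The groups did not overlap and the gene fell by 0.75 ± 0.13 on the log2 scale (1.68-fold, adjusted p = 0.000859, edgeR). Its level in A549 was 9.63, 17.8, 14.9 and 15.97 CPM with DMSO and 9.92, 12.1, 9.66 and 10.1 CPM with AMG900. Replicate 1 of the controls was again the low value, below all 4 treated libraries, and the log2 fold change of -0.51 ± 0.17 was not called (adjusted p = 0.0205, edgeR). Without that library it was -0.63 with an adjusted p of 0.000419.

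TGFBI (chr5:135364677-135399507, plus strand) encodes a secreted matrix protein first named for its induction by TGF-beta, and by CPM it ranked 17 of 13174 genes tested in A549 under either treatment. Its A549 libraries gave 3276, 3829, 3805 and 3784 CPM with DMSO and 4500, 4394, 4199 and 4071 CPM with AMG900. All treated libraries were above the controls, and the log2 fold change was 0.22 ± 0.06 (1.17-fold, adjusted p = 0.00871, edgeR). That call was narrow. It was lost without DMSO replicate 2, 3 or 4 or AMG900 replicate 1, 2 or 3 (adjusted p = 0.0151 to 0.0318, edgeR) and with scaling by total counts (0.15, adjusted p = 0.0819, edgeR). In H1792 the values were 994, 1121 and 1069 CPM with DMSO and 1038, 1068 and 1050 CPM with AMG900. The treated libraries lay inside the control range, with a log2 fold change of -0.013 ± 0.054 and a 95% interval of -0.12 to 0.09 (adjusted p = 0.859, edgeR).

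**Figure D1:**
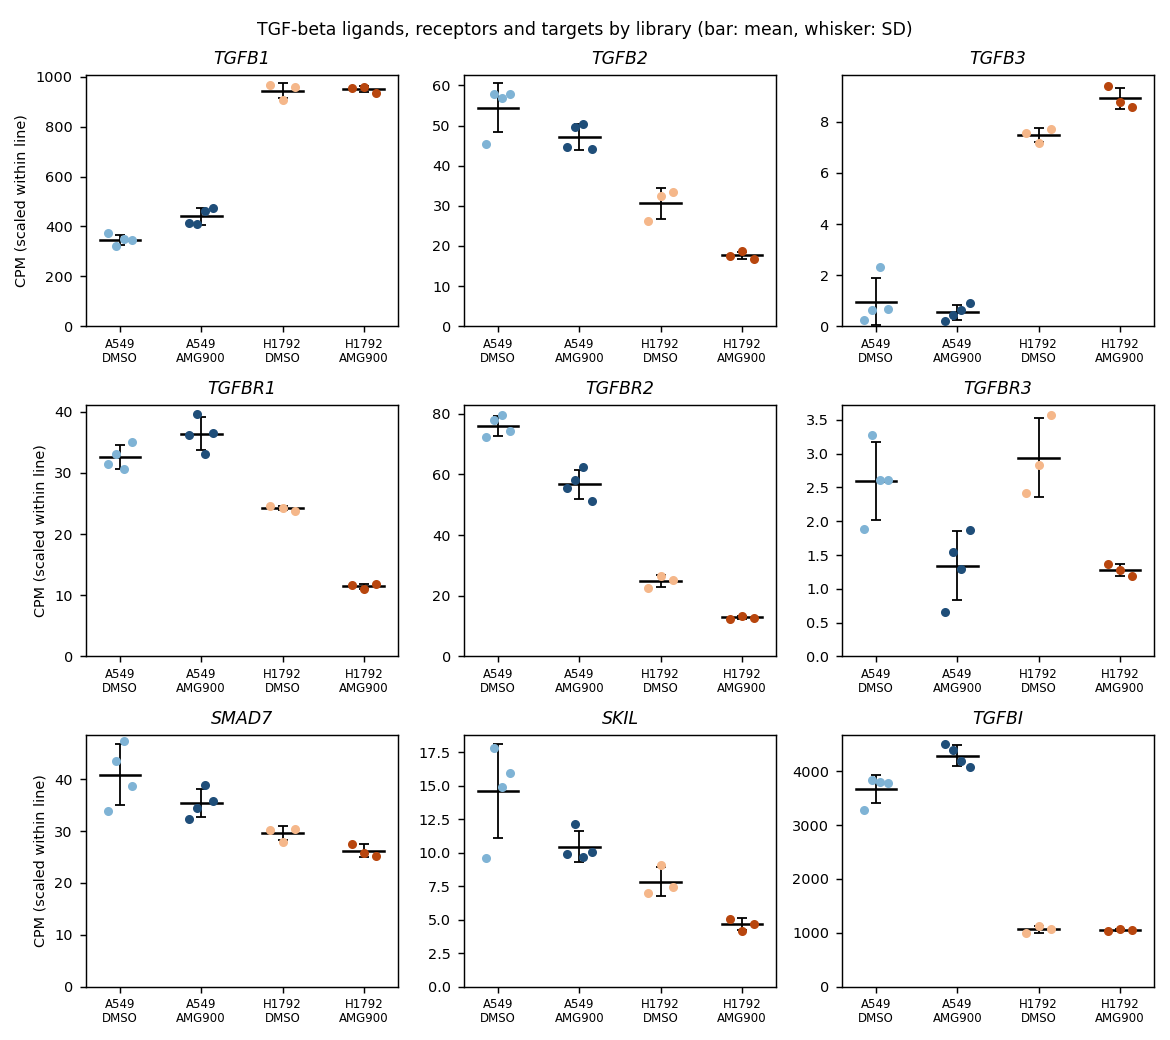
Each panel plots 1 gene, with the level in CPM from 0 on the vertical axis and the 4 groups on the horizontal axis. Points are libraries, lines are group means and whiskers are SDs, and each line was scaled on its own. TGFBR1, TGFBR2, TGFBR3, TGFB2, SKIL and, by less, SMAD7 sit lower with AMG900 in all 3 H1792 libraries, and TGFB3 sits higher there. In all 4 A549 libraries TGFB1 and TGFBI sit higher with AMG900, while TGFBR2 and, narrowly, TGFBR3 sit lower.

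In all, 3 of the 8 members tested were called in A549, 2 up and 1 down, and 35.0% of all genes tested were called there. Of these 8, 4 had groups that did not overlap, beside 43.9% of all genes. In H1792 5 of 9 were called, all down, where 35.1% of all genes were called and 18.8% were called down. The groups did not overlap for 7 of the 9, 6 of them lower with AMG900, beside 59.7% and 29.6% of all genes. The median log2 fold change of the members was -0.22 in A549 and -0.75 in H1792, and that of all genes tested was -0.01 and 0.01. In these bulk samples, fewer cells of one kind and less RNA per cell cannot be told apart. For a single gene, the exact two-sided permutation test over libraries cannot give a p below 0.0286 with 4 against 4, which TGFB1, TGFBR2, TGFBR3 and TGFBI reached, and cannot go below 0.1 with 3 against 3, so in H1792 it cannot pass 0.05. The labels do not say that the libraries of a group came from separately grown cultures beyond the dish, and the p-values measure the spread between these libraries.

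The response to AMG900 went with the GC content of the transcript across all genes, and this bears on every value above. Spearman's rho between GC content and log2 fold change was 0.490 over 12146 genes in A549 and 0.477 over 13598 genes in H1792, as a description. Genes whose longest transcript was below 45% GC had a median log2 fold change of -0.35 in A549 and -0.28 in H1792, and genes at 55% GC or above had 0.30 and 0.21. The members span this range, from SKIL at 35.8%, TGFBR1 at 38.8%, TGFBR3 at 41.8%, TGFB2 at 42.2% and TGFBR2 at 42.7% to TGFBI at 50.6%, TGFB3 at 51.9%, SMAD7 at 57.0% and TGFB1 at 63.6%. The 5 genes that fell in H1792 are the 5 with the lowest GC content.

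**Figure D2:**
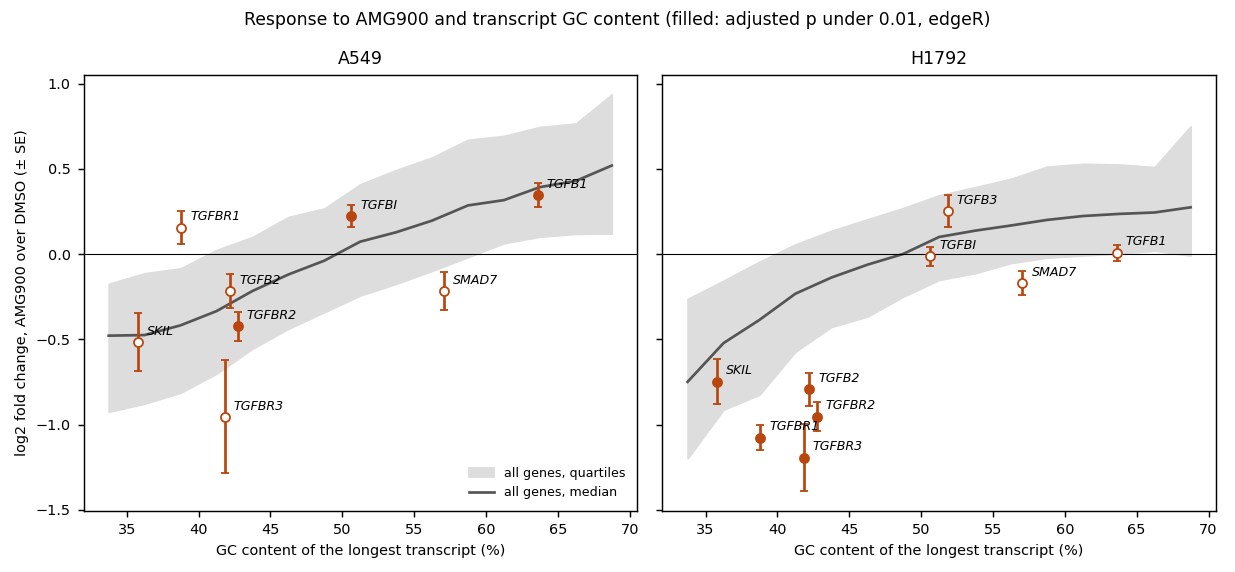
The horizontal axis is the GC content of each gene's longest transcript in percent and the vertical axis is the log2 fold change of AMG900 over DMSO, with A549 on the left and H1792 on the right. The grey line and band are the median and quartiles of all genes in bins of 2.5 percentage points, and orange points with SE are the members, filled where called. The grey line climbs from left to right in both lines, and in H1792 TGFBR1, TGFBR2, TGFBR3, TGFB2 and SKIL lie below the band's median at their GC content.

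When a smooth trend on GC content was removed from each library, the receptors and TGFB2 stayed lower in H1792 and the 3 A549 calls were lost. In H1792 TGFBR1 had a log2 fold change of -0.68 ± 0.08 (adjusted p = 4.93e-05), TGFBR2 -0.76 ± 0.07 (adjusted p = 1.06e-05), TGFBR3 -0.95 ± 0.18 (adjusted p = 0.00152) and TGFB2 -0.57 ± 0.08 (adjusted p = 0.000203), in edgeR. SKIL, the member with the lowest GC content, went to -0.16 ± 0.11 and was no longer called (adjusted p = 0.237, edgeR). TGFB1, the member with the highest, went from 0.0084 to -0.35 ± 0.05 and became a call (adjusted p = 0.000162, edgeR). SMAD7 became a call in both lines, at -0.44 ± 0.06 in H1792 (adjusted p = 0.000173) and -0.52 ± 0.11 in A549 (adjusted p = 0.00104), in edgeR.

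In A549 the corrected log2 fold change of TGFB1 turned to -0.11 ± 0.06 (adjusted p = 0.117), that of TGFBR2 shrank to -0.16 ± 0.07 (adjusted p = 0.0839) and that of TGFBI to 0.15 ± 0.05 (adjusted p = 0.0244), so none of the 3 calls remained in edgeR. TGFBR1 went to 0.59 ± 0.10 and was called up (adjusted p = 0.000258, edgeR), opposite to its direction in H1792. SKIL went to -0.03 ± 0.17 and TGFB2 to 0.08 ± 0.09, neither called (adjusted p = 0.897 and 0.522, edgeR). The correction treats the whole trend as technical, and whether the trend came from the libraries or from the cells was not tested.

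**Figure D3:**
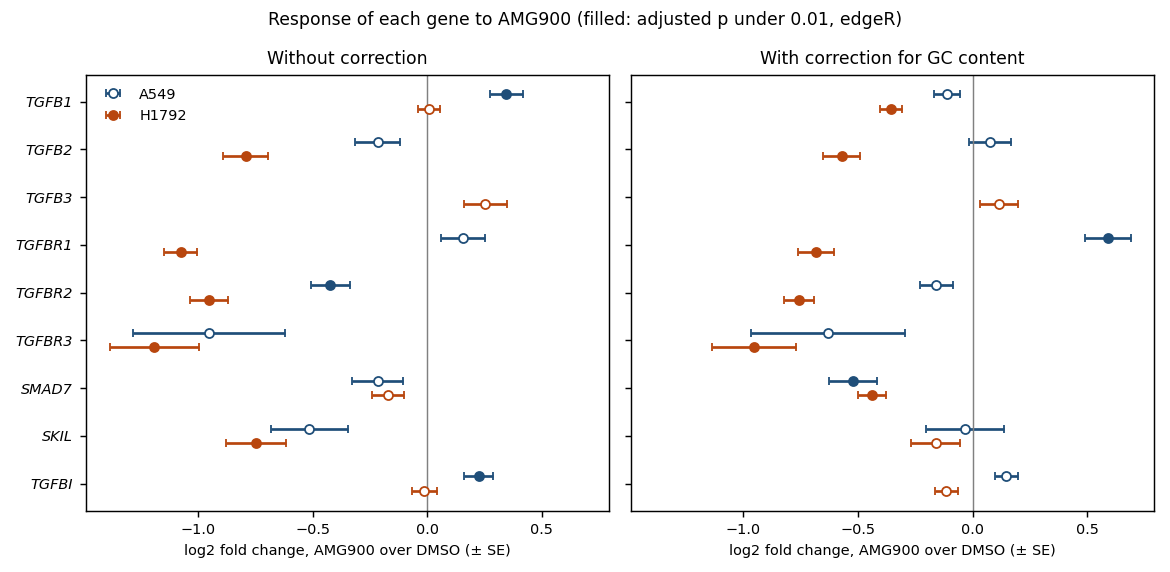
The log2 fold change of AMG900 over DMSO with its SE is on the horizontal axis and the 9 genes are on the vertical axis, blue for A549 and orange for H1792, filled where the adjusted p was below 0.01. The left panel is without and the right panel with the correction for GC content. TGFBR1, TGFBR2, TGFBR3 and TGFB2 in H1792 are filled and left of 0 in both panels, and TGFBR1 in A549 is right of 0 in both.

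The 2 lines differed in their response for 4 of the 9 members, each lower in H1792 relative to A549, by a test of the interaction of line and treatment over all 14 libraries. This share stands beside 14.5% of 14769 genes called either way, 5.37% up and 9.17% down. The difference in log2 fold change, H1792 minus A549, was -1.31 ± 0.13 for TGFBR1 (adjusted p = 2.44e-07), -0.65 ± 0.15 for TGFB2 (adjusted p = 0.00271), -0.60 ± 0.12 for TGFBR2 (adjusted p = 0.000873) and -0.41 ± 0.10 for TGFB1 (adjusted p = 0.00349), in edgeR. The median over all genes was -0.10 on this scale, so a part of each value is shared by the genes at large, which weighs most on TGFB1. With size factors of DESeq2 that median was -0.02, so this part depends on how the 14 libraries were scaled together. The within-line values above were scaled within each line and do not subtract exactly to these. Of the 4, TGFBR1 and TGFBR2 were called in all 14 fits that left out 1 library. TGFB1 and TGFB2 were both lost without H1792 DMSO replicate 3 (adjusted p = 0.0116 and 0.0128, edgeR) and without H1792 AMG900 replicate 3 (adjusted p = 0.0119 and 0.0115, edgeR), which left 2 members called. Over all genes these fits called 1655 of 15013 and 1665 of 15011, beside 2148 of 14769 in the main fit. TGFB1 was also lost without H1792 AMG900 replicate 1 or 2 (adjusted p = 0.0102 and 0.0103, edgeR) and with size factors of DESeq2 (-0.33, adjusted p = 0.0170, edgeR), and TGFB2 with total counts (-0.56, adjusted p = 0.0125, edgeR).

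With the GC trend removed, the interaction was -1.37 for TGFBR1, -0.73 for TGFB2, -0.69 for TGFBR2 and -0.30 for TGFB1, all still called, and TGFBI at -0.33 was added (adjusted p = 0.00158, edgeR). With a replicate block beside the correction TGFB1 was lost (adjusted p = 0.0133, edgeR). Without the correction TGFBI had -0.31 ± 0.09 and missed the threshold (adjusted p = 0.0159, edgeR). No difference between the lines was called for TGFB3 (1.10 ± 0.53), TGFBR3 (-0.31 ± 0.38), SKIL (-0.30 ± 0.23) or SMAD7 (-0.027 ± 0.14, above 0 with DESeq2, its size factors or total counts). The intervals for these 4 were 0.05 to 2.15, -1.06 to 0.44, -0.75 to 0.15 and -0.31 to 0.26, before adjustment over genes, and sizeable differences remain possible for all but SMAD7. The adjusted p of TGFB3 was 0.146 in edgeR, and its value rested on 1 library with 31 counts, since it was 0.21 without A549 DMSO replicate 3 (adjusted p = 0.793, edgeR). TGFBR3 was -0.11 without A549 AMG900 replicate 4, -0.15 without H1792 DMSO replicate 3 and -0.50 without A549 AMG900 replicate 1. SKIL was -0.18 without A549 DMSO replicate 1 and -0.19 without H1792 DMSO replicate 2. None of these was called.

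With DMSO alone the lines differed in 8 of the 9 members, 2 higher and 6 lower in H1792, where 66.1% of all genes were called and 31.9% were called lower. The groups did not overlap for 7 members, 5 of them lower in H1792, beside 68.3% and 32.0% of all genes. With all 14 libraries scaled together, H1792 had the higher TGFB1, at 968 ± 33.6 CPM (SD, n = 3) against 332 ± 19.6 CPM (SD, n = 4) in A549, a log2 difference of 1.55 ± 0.07 (adjusted p = 9.97e-14, edgeR). TGFB3 was higher too, at 7.67 ± 0.30 CPM against 0.923 ± 0.894 CPM, a log2 difference of 2.87 ± 0.33 (adjusted p = 2.11e-07, edgeR). H1792 had less TGFBI (-1.69 ± 0.07, adjusted p = 2.32e-14), TGFBR2 (-1.52 ± 0.09, adjusted p = 4.84e-12), SKIL (-0.84 ± 0.16, adjusted p = 0.000133) and TGFB2 (-0.75 ± 0.10, adjusted p = 2.53e-06) in edgeR. SMAD7 (-0.39 ± 0.10, adjusted p = 0.00233) and TGFBR1 (-0.33 ± 0.09, adjusted p = 0.00247) were lower by less in edgeR, and these calls were less steady. TGFBR1 was lost without A549 DMSO replicate 4 or H1792 DMSO replicate 1 or 3 (adjusted p = 0.0133, 0.0189 and 0.0145, edgeR) and with the GC correction (-0.27, adjusted p = 0.0202, edgeR), and SMAD7 without A549 DMSO replicate 3 or H1792 DMSO replicate 1 or 2 (adjusted p = 0.0144, 0.0139 and 0.0145, edgeR). TGFBR3 did not differ beyond its spread (0.23 ± 0.26, adjusted p = 0.434, edgeR). The lines were grown in different media and, by depth, sequenced differently, and the part of either in these differences cannot be told apart from that of the line.

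After AMG900 8 members again differed between the lines, 2 higher and 6 lower in H1792, beside 68.5% and, for lower, 35.3% of all genes. The groups did not overlap for 8, 6 of them lower, beside 77.2% and 39.3% of all genes. For the receptor kinases the log2 difference was -1.64 ± 0.09 for TGFBR1 and -2.12 ± 0.09 for TGFBR2 (adjusted p = 4.03e-12 and 3.60e-14, edgeR), and the interaction above is the test of how far this departs from the difference with DMSO. TGFBR3 was not called (-0.082 ± 0.28, adjusted p = 0.799, edgeR). The comparison shares libraries with those above.

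Ordered by level over the 4 groups, TGFBR2 was the one gene in which each neighbor in the order differed, from A549 with DMSO (72.6 ± 3.53 CPM) and A549 with AMG900 (57.3 ± 4.38 CPM) to H1792 with DMSO (25.4 ± 1.98 CPM) and H1792 with AMG900 (13.1 ± 0.496 CPM). TGFBR1 ran from 36.8 ± 2.87 and 31.2 ± 2.07 CPM in A549 with AMG900 and DMSO, which did not differ at the threshold, to 24.8 ± 0.388 and 11.8 ± 0.403 CPM in H1792. TGFB1 was highest in the 2 H1792 groups, which did not differ from each other, then in A549 with AMG900 and lowest in A549 with DMSO. For SMAD7 no pair of neighbors differed, and for TGFBR3 none did either. TGFB3 fell into 2 steps, the H1792 groups above the A549 groups.

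Per kilobase of exon, which allows levels of different genes to be set side by side, TGFBI was the most abundant member in A549 with DMSO at 455 ± 36.6 CPM per kb, and TGFB1 was the next at 102 ± 6.02 CPM per kb. In H1792 with DMSO this order was turned, with TGFB1 at 297 ± 10.3 and TGFBI at 141 ± 8.28 CPM per kb. The receptors were far below the main ligand, and TGFBR2 and TGFBR1 stood at 10.6 ± 0.516 and 3.90 ± 0.259 CPM per kb in A549 and 3.71 ± 0.289 and 3.11 ± 0.0486 CPM per kb in H1792. With AMG900 they were at 1.92 ± 0.0725 and 1.48 ± 0.0504 CPM per kb in H1792. TGFBR3 had group means of 0.153 to 0.351 CPM per kb.

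**Figure D4:**
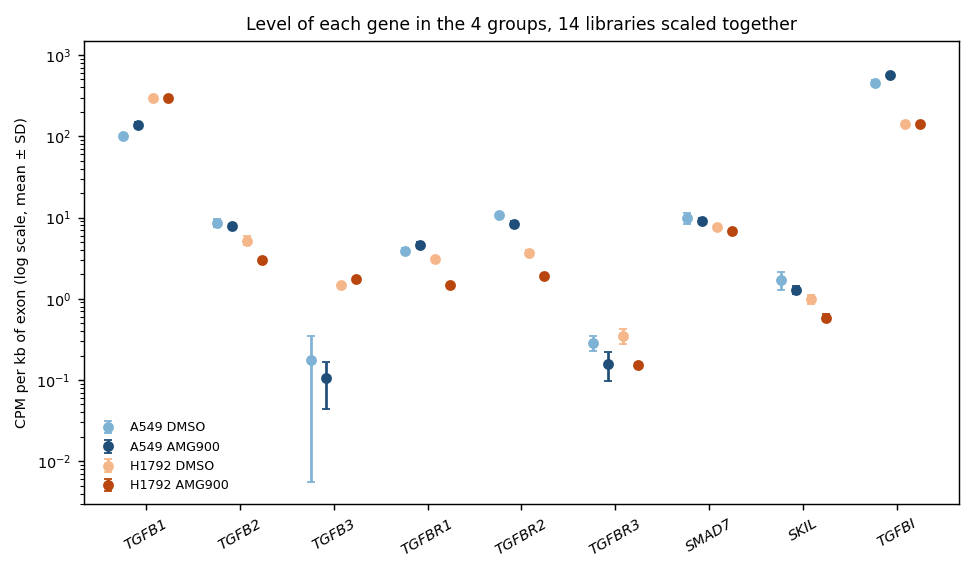
The vertical axis is CPM per kilobase of exon on a log scale and the horizontal axis holds the 9 genes, with the 4 groups as colored points showing mean and SD, all 14 libraries scaled together. TGFB1 and TGFBI stand well above the other 7 genes, and TGFB3 is the gene with the widest gap between the lines, from 0.105 to 1.75 CPM per kb.

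The 4 members whose response differed between lines were set beside all other genes with enough counts, 10856 in number, by Pearson's r of log2 CPM over the 14 libraries, as a description, since the libraries share line, treatment and depth. The difference between the lines weighs on r over all 14, so r within the 8 A549 and the 6 H1792 libraries is given where it was lowest. TGFB1 was most like PLPPR2, ADGRL1 and ST3GAL2, each with r = 0.996, but within H1792 r was 0.636 for ADGRL1 and 0.456 for ST3GAL2. TGFB2 was most like B4GALT5 (r = 0.982), DSG2 (r = 0.981) and TGFBR2 (r = 0.979), so that a member was among its nearest 3. Within A549 r was 0.758 for DSG2 and 0.668 for TGFBR2. TGFBR1 was most like CCPG1 (r = 0.977), IGF2R (r = 0.963) and RCBTB1 (r = 0.960), and within A549 r was 0.759, 0.802 and 0.072. TGFBR2 was most like TRIM4 (r = 0.995), BICC1 (r = 0.994) and EPAS1 (r = 0.993).

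The rest of the pathway was read from 7 lists of 84 further genes, and it moved in both directions. In A549 19 of the 76 tested rose and 16 fell, and in H1792 16 of 75 rose and 22 fell, at medians of 0.018 and -0.049 on the log2 scale. Over all genes tested 17.2% rose and 17.8% fell in A549, and 16.2% rose and 18.8% fell in H1792, and the counts for each list are to be read beside these shares. Among the 12 genes that keep TGF-beta latent or release it, 3 rose and 2 fell of 8 tested in A549 and 4 rose and 3 fell of 11 in H1792. THBS1, a matrix protein that activates latent TGF-beta, went from 33.4 to 12.6 CPM in A549 (log2 fold change -1.42 ± 0.12) and from 203 to 71.5 CPM in H1792 (-1.51 ± 0.06). ITGAV, the alpha-v subunit of integrins that pull the ligand free, went from 34.4 to 14.2 CPM in A549 (-1.27 ± 0.13) and from 24.999 to 8.55 CPM in H1792 (-1.55 ± 0.10). THBS1 and ITGAV fell in both lines and kept their calls with the GC correction. MMP14 of the same list went the other way in H1792, from a mean of 350 to 448 CPM with separate ranges. In A549 MMP14 had means of 18.1 and 19.7 CPM, with overlapping ranges. The integrin subunits ITGB6 and ITGB8 of this list were rare, with means of at most 2.08 CPM in any group. LTBP1, which tethers the latent complex to matrix, rose in A549 (0.57 ± 0.12, adjusted p = 0.00134) and fell in H1792 (-0.37 ± 0.06, adjusted p = 0.000577) in edgeR. FURIN, a protease that cuts the precursor, rose in A549 (0.44 ± 0.07), and NRROS, which anchors latent ligand on the cell, rose in H1792 (0.41 ± 0.09), and neither was called with the GC correction (0.006 and 0.098).

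Of the 14 other ligands and extracellular regulators of the superfamily, 5 rose and none fell of 13 tested in A549, and 3 rose and 2 fell of 11 in H1792. GDF15, a stress-induced cytokine, rose from 231 to 552 CPM in A549 (1.26 ± 0.09) and from 4.71 to 15.1 CPM in H1792 (1.67 ± 0.12). BMP4 rose in both lines (0.76 ± 0.12 and 0.47 ± 0.08), and the second of these was not called with the GC correction (0.28, adjusted p = 0.0123, edgeR). BMP2 (1.07 ± 0.17) and BMP1 (0.74 ± 0.07), the latter a protease and not a ligand, rose in A549. BMP1 also went from a mean of 105 to 145 CPM in H1792, with separate ranges. GREM1 (-1.20 ± 0.12) and FST (-0.65 ± 0.14), which bind and block BMPs and activins, fell in H1792.

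Of the 10 other receptors, 2 fell of 9 tested in A549, and 1 rose and 1 fell of 8 in H1792. BMPR1A, a BMP type I receptor, fell in both lines (-1.03 ± 0.17 and -1.13 ± 0.22). With the GC correction it was -0.62 in A549 and -0.77 in H1792, still called (adjusted p = 0.00716 and 0.00906, edgeR), but the A549 call was lost with a replicate block beside the correction (adjusted p = 0.0148, edgeR). BMPR2 fell in A549 (-0.54 ± 0.14) and ENG, a co-receptor, rose in H1792 (0.39 ± 0.05), and neither call was kept with the GC correction (-0.13 and 0.028). Of 7 SMAD genes, 1 fell of 6 tested in A549, and 4 fell and 1 rose of 7 in H1792. SMAD4, the shared partner, fell in both lines, from 18.6 to 9.44 CPM in A549 (-0.997 ± 0.14) and from 17.9 to 10.11 CPM in H1792 (-0.82 ± 0.11), and was called in both with the GC correction. SMAD2 (-0.67 ± 0.12), SMAD1 (-0.58 ± 0.09) and SMAD5 (-0.36 ± 0.09), which receptors phosphorylate, fell in H1792, and none of these was called with the correction, where SMAD5 turned to 0.15. SMAD3, which TGFBR1 also phosphorylates, went the other way in H1792, from a mean of 227 to 269 CPM with separate ranges. In A549 SMAD3 had means of 320 and 307 CPM, with overlapping ranges.

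Of 14 regulators of receptor and SMAD signaling, 2 rose and 2 fell in A549, and 5 fell and none rose of 13 tested in H1792. STRAP, which holds SMAD7 at the receptor, fell in both lines (-0.90 ± 0.09 and -0.74 ± 0.05). SKI, the relative of SKIL, fell in H1792 (-0.45 ± 0.06), as did USP15 (-1.14 ± 0.19) and PPM1A (-0.41 ± 0.09). With the GC correction USP15 was -0.59 and no longer called (adjusted p = 0.0126, edgeR), and PPM1A turned to 0.13. TGIF1, a co-repressor (0.52 ± 0.11), and PMEPA1, a feedback inhibitor (0.36 ± 0.05), rose in A549, and FKBP1A, which binds TGFBR1, fell there (-0.26 ± 0.07). PMEPA1 and FKBP1A were not called with the correction (adjusted p = 0.0223 and 0.0143, edgeR).

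The 22 genes known to be induced by TGF-beta in epithelial cells did not move together, since 8 rose and 8 fell of 21 tested in A549 and 6 rose and 5 fell of 20 in H1792. CTGF (now CCN2), a matricellular protein often read as a reporter of the pathway, fell in both lines, from 30.1, 23.4, 24.5 and 24.6 CPM to 15.02, 17.3, 21.4 and 17.3 CPM in A549 and from 126, 115 and 126 CPM to 54.8, 55.9 and 54.9 CPM in H1792. Its log2 fold changes were -0.51 ± 0.13 (adjusted p = 0.00523) and -1.15 ± 0.06 (adjusted p = 7.53e-07) in edgeR, and it had no GC value. The A549 call was lost without DMSO replicate 3 or 4 or AMG900 replicate 1, 2 or 4 (adjusted p up to 0.0182, edgeR).

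Of the other induced genes, COL1A1 (-1.14 ± 0.11) and SNAI1 (-1.03 ± 0.17) fell and SPHK1 rose (1.04 ± 0.17) in A549, while ANGPTL4 (1.12 ± 0.07) and TAGLN (0.98 ± 0.22) rose in H1792. SNAI1, a transcription factor of epithelial-mesenchymal transition, rose in H1792, from a mean of 33.2 to 44.5 CPM (0.42 ± 0.06, adjusted p = 0.000358, edgeR), and the interaction was 1.39 ± 0.16 (adjusted p = 2.47e-06, edgeR). These SNAI1 values were chosen after they were seen. So were the CPM values given for EPCAM, for VIM, CDH2 and COL1A1 as markers, for ITGB6, ITGB8, MMP14 and SMAD3, and for BMP1 in H1792. TAGLN was 0.74 and not called with the GC correction (adjusted p = 0.0120, edgeR). NUAK1, a kinase, fell in both lines (-0.93 ± 0.12 and -0.91 ± 0.12). Of 5 genes that TGF-beta represses, MYC fell in both (-1.56 ± 0.08 and -0.53 ± 0.05), CDH1 (E-cadherin) rose in A549 (0.82 ± 0.14), and in H1792 ID2 rose (1.89 ± 0.29) and ID3 fell (-0.37 ± 0.09). Some pathway genes named above kept their calls with the GC correction at values that differed by 1.5 times or more. In A549 these were ITGAV (-0.77), GDF15 (0.80), BMP1 (0.32), SMAD4 (-0.65) and SPHK1 (0.56), and in H1792 ITGAV (-0.82), SKI (-0.79) and ID3 (-0.62). Calls that single libraries could undo, with their highest adjusted p in edgeR when 1 library was left out, were BMPR2 (0.0239) and FKBP1A (0.0210) in A549 and NRROS (0.0199), FST (0.0160), SMAD5 (0.0447), PPM1A (0.0192), TAGLN (0.0279) and ID3 (0.0365) in H1792.

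**Figure D5:**
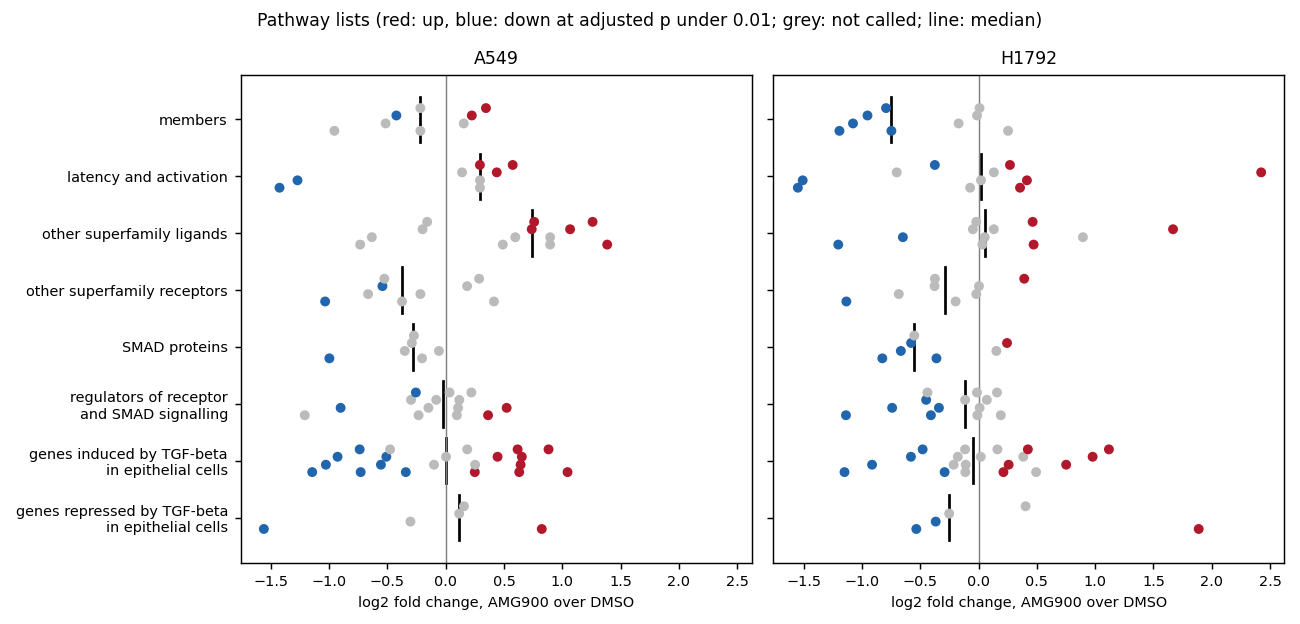
The horizontal axis is the log2 fold change of AMG900 over DMSO in A549 (left) and H1792 (right), and each row of points is a list of genes, with the members in the top row. Red points rose, blue points fell and grey points were not called, and the black line is the median of the list. The member row is the one furthest left of 0 in H1792, at -0.75, and in that line every other row but that of the regulators holds both red and blue points.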

How the data were processed

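RNA-seq was made from 14 libraries of total RNA. The authors deposited 1 table of raw counts per gene symbol for each line, and per the submitters' processing notes reads were handled with STAR and HTSeq against hg19 (GRCh37), with versions and strand setting not given in the sources used here. The unit is therefore counts as deposited by the authors, with 26760 names a table. For H1792, 28 names had been turned into dates and could not be matched.

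Treatment was tested within each line, and line and interaction over all 14 libraries, with the quasi-likelihood test of edgeR 4.0.16 (limma 3.58.1, R 4.3.3) after filterByExpr and TMM scaling, with Benjamini-Hochberg adjustment over all genes tested and calls below 0.01. Genes with a single match in GENCODE (GRCh37) got a GC content of the longest transcript, 92.2% of those tested in A549 and 90.6% in H1792, and the GC correction fitted a natural spline with 5 degrees of freedom to each library. Exon length was the union of exons. Replicate numbers did not pair libraries (correlations of -0.14 to 0.05). No replicate pair agreed within counting noise.

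Alternatives were DESeq2 1.42.0, its size factors, total counts, other filters, a replicate block, an adjusted p below 0.05 and each library left out. The test was tested on simulated data. The members and lists were chosen with earlier results of these data known. Named pathway genes were CTGF and 1 further gene that is not reported here, and, per list and line, up to 4 called genes with the largest change and a mean of at least 100 counts. The counts cover reads without molecular identifiers. On the other strand TGFB1 overlaps HNRNPUL1 (3141 to 62860 counts a library), CCDC97 (422 to 4239) and TMEM91 (21 to 618). TGFB2 overlaps TGFB2-AS1 (0 to 19 counts a library) and TGFB3 overlaps IFT43 (106 to 2964) in the same way. Reads from the 2 strands may not have been told apart. The part of these overlaps in the levels of TGFB1 and TGFB3 was not tested.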

Additional observations from a re-analysis of the deposited data

Results flagged for a closer look

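In A549 DMSO replicate 1, the smallest library, TGFB2 had 45.4 CPM and TGFBI had 3276 CPM, each far below the other 3 control libraries by Dixon's test at 95%. The test was run on 18 groups of 4 libraries, and chance flags about 1 in 20.

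The change with AMG900 differed between the lines by the interaction test, H1792 minus A549 on the log2 scale, for TGFB1 (-0.41), TGFB2 (-0.65), TGFBR1 (-1.31) and TGFBR2 (-0.60). The highest adjusted p over all alternatives (edgeR, and DESeq2 as one of them) and left-out libraries was 0.0170 for TGFB1, 0.0128 for TGFB2, 1.71e-05 for TGFBR1 and 0.00596 for TGFBR2.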

How the results depend on the processing

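Of the counts of members called, those within H1792 and between the lines stayed within 1.5 times under every alternative run. A steady count did not mean the same genes. With the GC correction H1792 lost SKIL and gained TGFB1 and SMAD7. In A549 that correction kept none of the main calls and added TGFBR1 and SMAD7. With it 5548 of 15017 genes were called in H1792, beside 5266 in the main fit. In A549 4260 of 13174 genes were called with it, beside 4605. In A549 the count of 3 was 5 at an adjusted p below 0.05 and 2 to 5 when each library was left out, the 5 without DMSO replicate 1. Without that library 5854 of 13452 genes were called, beside 4605 of 13174 in the main fit. The interaction count of 4 was 2 to 5 when each library was left out. Over all genes the interaction calls were 1567 to 3060 in these fits, beside 2148 in the main fit. The replicate numbers gave no pairing, and a replicate block left 2 members called in A549, 5 in H1792, 4 in the interaction and 8 in each comparison between lines, where TGFBI in A549 was lost (adjusted p = 0.0210, edgeR) and uncalled TGFBR3 between AMG900 groups turned to 0.0148. In the same fit BMPR2, FKBP1A and CTGF in A549 were lost (adjusted p = 0.0208, 0.0123 and 0.0136, edgeR), and no other call changed. Over all genes the block left 3907 of 13174 called in A549, 4788 of 15017 in H1792 and 1588 of 14769 in the interaction. Between the lines it left 9389 of 14769 called with DMSO and 9819 with AMG900.

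With the GC correction, alone or with the block, the log2 fold change in A549 turned to -0.11 and -0.11 for TGFB1 and to 0.0759 and 0.0882 for TGFB2, and SKIL to 0.00222 with the block. In H1792 it turned to -0.35 and -0.35 for TGFB1, 0.15 and 0.15 for SMAD5 and 0.13 and 0.13 for PPM1A. The interaction of SMAD7 turned to 0.0308 and 0.0183, and TGFBR3 between AMG900 groups to 0.0691 with both.

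The other turns were of values near 0, not called in these fits. TGFB1 in H1792 was -0.00516 with DESeq2, -0.0561 with total counts, -0.00256 with no filter and -0.0283 to 0.0202 over left-out libraries. TGFBI in H1792 was 0.00232 with at least 10 counts in every library and -0.0806 to 0.0185 over left-out libraries. The interaction of SMAD7 was 0.0502 with DESeq2, 0.0495 with its size factors, 0.0628 with total counts and -0.11 to 0.0408 over left-out libraries, and TGFBR3 between AMG900 groups was -0.27 to 0.12. The cause of these changes was not tested. In A549 TGFB3, with 1 to 31 counts a library, was not tested, and TGFBR3, with 7 to 44, allows only large changes to be called.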
